A study of Mus musculus with 15 samples.

Results

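This account covers 7 transcription factor genes that lymphocytes use when they become effector cells, Irf4, Batf, Batf3, Nfil3, Prdm1, Maf and Bhlhe40, in group 2 innate lymphoid cells (ILC2s) of the mouse lung. They were taken by symbol from the array features annotated with exactly 1 gene, and of several features of a gene the brightest over all arrays was used. All 7 passed the filter on dim features and stand among 16257 genes tested. Maf had 2 features and each of the others 1, which makes 8 of 41345 features.

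Total RNA of ILC2s was measured on 15 Affymetrix arrays in 5 groups of 3, which the labels call biological replicates. Naive adult females and naive adult males were 8 weeks old and labelled naive. Effector adult females and effector adult males were given intranasal IL-33, an alarm cytokine of epithelial cells to which ILC2s respond, on 3 days in a row, and their cells were isolated 1 day after the last dose. Neonates were 10 days old and also labelled naive, and the labels give no sex for them. All cells were ILC2s taken from lungs. Strain, mice per array, the sort that defined the cells, the age of effector adults, a group dosed without IL-33 and the hour of isolation are unknown from the labels, so dosing itself, or any batch that follows the groups, cannot be told apart from IL-33. Whether arrays came from separate mice is unknown too, and the p-values measure the spread between these arrays.

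ILC2s live in tissues, lack the rearranged antigen receptors of T and B cells, and release IL-5 and IL-13 when epithelial alarm signals reach them. IRF4 is an interferon regulatory factor with weak DNA binding of its own, which binds together with a dimer of BATF or BATF3 and a JUN protein at composite elements called AICE, or with ETS factors such as PU.1. NFIL3 is a repressor of the basic leucine zipper (bZIP) class that is required for the development of innate lymphoid cells. Blimp-1, the product of Prdm1, is a repressor that drives terminal differentiation of B and T cells. c-MAF, the product of Maf, promotes IL-4 and IL-10 expression. BHLHE40 is a helix-loop-helix repressor that supports cytokine production by T cells and feeds back on the circadian clock.

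Values are log2 expression levels, so 1 unit is a 2-fold step. Signal with no transcript behind it was gauged from 1383 features of olfactory and vomeronasal receptor genes, which lymphocytes do not use. The 95th percentile of their group means was 5.46 on naive adult, 4.88 on neonatal and 4.62 on effector arrays, and levels up to it are called the background range here. Pairs of arrays within a group had a Pearson correlation of 0.962 to 0.974 in the effector groups and of 0.904 to 0.960 elsewhere. All 12 tested ILC2 markers, among them Gata3, Il7r, Thy1, Klrg1 and Rora, lay above the background range in naive, effector and neonatal cells. Their mean level was 9.50 to 9.72 on naive adult, 9.38 to 9.67 on effector and 9.40 to 9.76 on neonatal arrays.

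Of the 7 genes, 5 rose from naive to effector adults and none fell: Irf4, Batf, Batf3, Nfil3 and Prdm1. On those 5 the 6 effector arrays all lay above the 6 naive arrays, as they did for 15.2% of all genes tested. Over all genes tested, 34.6% were called in this comparison and 23.7% were called higher (limma, Benjamini-Hochberg adjusted p under 0.05). The median difference was 1.04 over the 7 genes and 0.03 over all genes. Bhlhe40 and Maf did not pass. In neonates the set divided: Irf4, Nfil3 and Bhlhe40 were higher than in naive adults, Prdm1 missed the threshold, and Batf, Batf3 and Maf did not pass.

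**Figure D1:**
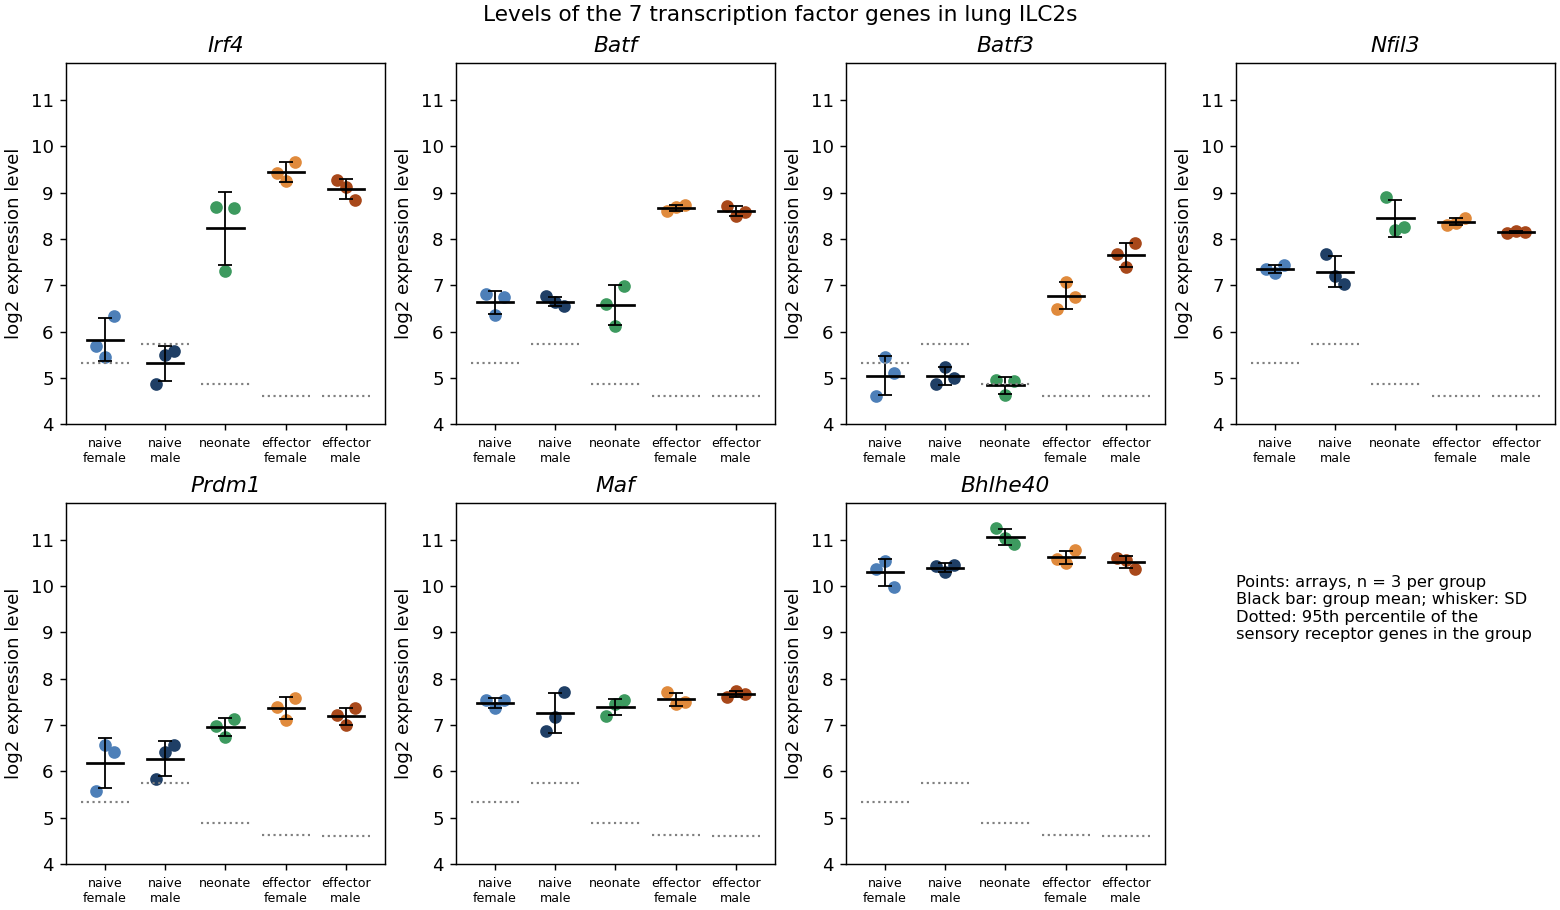
Log2 expression level (vertical axis) of each gene on every array in the 5 groups (horizontal axis); points are arrays, black bars group means, whiskers SD (n = 3), and dotted lines the 95th percentile of the sensory receptor genes. Irf4 is high in neonatal and effector cells, Batf and Batf3 in effector cells, and Bhlhe40 is highest in neonates.

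Irf4 had the largest difference of the 7. Its level was 5.69, 5.44 and 6.34 on the naive female arrays and 4.87, 5.49 and 5.59 on the naive male arrays. It was 9.43, 9.25 and 9.67 in effector females and 9.27, 9.13 and 8.84 in effector males. The lowest effector array thus lay 2.50 above the highest naive array. The difference was 3.69 ± 0.24 (SE; n = 6 effector and 6 naive arrays; 95% interval 3.19 to 4.20; limma adjusted p = 1.81e-08), a 13-fold step in array signal that ranked 30 among the rises of all genes. The naive mean of 5.57 lay just above the background range of naive adults, and in naive males alone the mean of 5.31 lay below their 95th percentile of 5.74.

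Batf and Batf3 encode the bZIP partners with which IRF4 binds. Batf stood at 6.81, 6.35 and 6.74 in naive females and 6.76, 6.64 and 6.56 in naive males, against 8.61, 8.69 and 8.73 in effector females and 8.72, 8.50 and 8.59 in effector males. All effector arrays lay between 8.50 and 8.73, with an SD of 0.09 (n = 6), and the nearest naive array was 1.69 below them. The rise was 2.00 ± 0.14 (SE, n = 6 and 6; limma adjusted p = 5.53e-08), or 3.99-fold. Batf3 stood at 4.61, 5.45 and 5.10 in naive females and 4.88, 5.25 and 5.0 in naive males, and at 6.50, 7.08 and 6.74 in effector females and 7.68, 7.39 and 7.91 in effector males. The rise was 2.17 ± 0.16 (SE, n = 6 and 6; limma adjusted p = 8.71e-08). The naive mean of Batf3, 5.05, lay in the background range, as did its neonatal mean of 4.84.

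Nfil3 and Prdm1, both repressors, rose by about 1 unit. Nfil3 was at 7.35, 7.26 and 7.45 in naive females and 7.67, 7.20 and 7.02 in naive males, and at 8.31, 8.35 and 8.46 in effector females and 8.12, 8.18 and 8.16 in effector males. Its rise was 0.94 ± 0.14 (SE, n = 6 and 6; limma adjusted p = 0.000143). Prdm1 was at 5.57, 6.57 and 6.41 in naive females and 5.84, 6.43 and 6.56 in naive males, and at 7.39, 7.10 and 7.58 in effector females and 7.21, 6.99 and 7.36 in effector males. The first array of each naive group was the low one, and the groups were still separated by 0.42. The rise was 1.04 ± 0.18 (limma adjusted p = 0.000426).

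Bhlhe40 and Maf were expressed in every group and did not pass the test between effector and naive adults. Bhlhe40 was among the brightest features, at percentile 98.2 or above on each adult array. Its levels were 9.97 to 10.54 over the 6 naive arrays (median 10.41) and 10.36 to 10.78 over the 6 effector arrays (median 10.58). The difference was 0.22 ± 0.12 (95% interval -0.04 to 0.48; limma adjusted p = 0.185). Maf was at 6.87 to 7.72 (median 7.45) in naive and 7.46 to 7.73 (median 7.64) in effector adults, a difference of 0.25 ± 0.14 (95% interval -0.05 to 0.54; limma adjusted p = 0.182). The other feature of Maf was dimmer, at 5.47 to 6.86 in naive and 6.62 to 7.07 in effector adults, and was more scattered on naive arrays (SD 0.62 against 0.30, n = 6). With the mean of both features Maf differed by 0.43 and passed (limma adjusted p = 0.0475), and it also passed without naive male array 3 (0.36, adjusted p = 0.0278). With each array centred on its median, which moves the median of all genes from 0.03 to 0.17, Maf (0.38) and Bhlhe40 (0.36) passed too (adjusted p = 0.0433 and 0.0347).

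**Figure D2:**
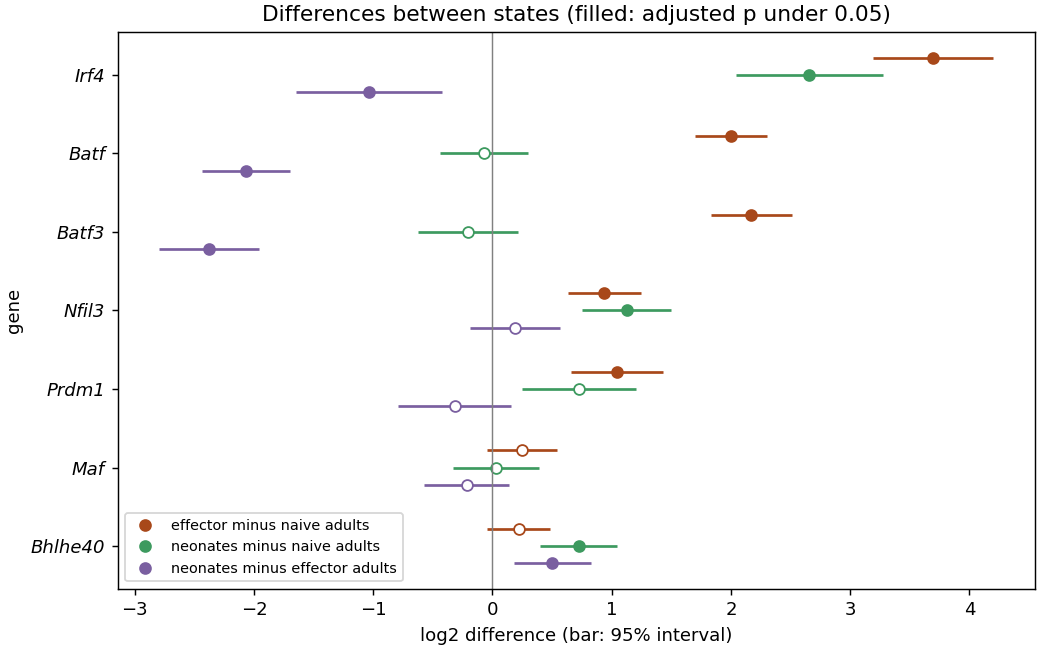
Log2 difference (horizontal axis) with 95% interval for each gene in 3 comparisons; filled points have an adjusted p under 0.05 in limma. Batf and Batf3 differ between effector cells and both other states, while Irf4 and Nfil3 are higher than in naive adults in effector and in neonatal cells.

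The region around the annotated start was read for the 3 genes with the largest rises and for Prdm1, to show which letters stand where these genes begin. RefSeq's promoter table for the build GRCm38.p6 held 5 of the 7 genes, each as 250 bases before and 50 after the start; Maf and Bhlhe40 were not among them. Both strands were searched for the letters TGANTCA, which take in the AP-1 consensus forms TGACTCA and TGAGTCA and looser ones, a pair of AICE forms that contain it (GAAA directly before TGANTCA, and TTTC followed after 4 bases by TGANTCA), the interferon response core (GAAA followed after 2 bases by GAAA), the STAT site TTCNNNGAA, the E-box CACGTG that BHLHE40 binds, the NFIL3 site TTANGTAA, the NF-kB consensus site and the TATA box TATAAA. Capitals mark the matches.
Irf4, chr13:30748983-30749282, plus strand: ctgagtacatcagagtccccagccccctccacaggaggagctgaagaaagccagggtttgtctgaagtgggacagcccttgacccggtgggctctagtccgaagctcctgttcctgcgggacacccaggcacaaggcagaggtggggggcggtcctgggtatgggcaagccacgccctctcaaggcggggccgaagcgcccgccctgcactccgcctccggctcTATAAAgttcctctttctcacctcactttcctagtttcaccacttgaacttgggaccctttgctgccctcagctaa
Batf, chr12:85686470-85686769, plus strand: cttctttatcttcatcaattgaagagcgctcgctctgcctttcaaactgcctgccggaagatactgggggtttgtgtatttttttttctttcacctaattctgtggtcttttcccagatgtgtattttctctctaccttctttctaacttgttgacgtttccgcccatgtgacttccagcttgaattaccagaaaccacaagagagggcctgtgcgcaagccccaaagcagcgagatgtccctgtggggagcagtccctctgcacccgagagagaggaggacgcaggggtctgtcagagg
Batf3, chr1:191098164-191098463, plus strand: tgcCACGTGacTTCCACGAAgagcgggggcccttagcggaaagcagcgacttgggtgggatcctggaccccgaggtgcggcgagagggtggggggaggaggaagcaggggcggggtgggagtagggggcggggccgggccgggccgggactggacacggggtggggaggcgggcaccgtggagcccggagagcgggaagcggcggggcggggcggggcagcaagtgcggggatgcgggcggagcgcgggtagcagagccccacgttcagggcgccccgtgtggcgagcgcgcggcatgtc
Prdm1, chr10:44458699-44458998, minus strand: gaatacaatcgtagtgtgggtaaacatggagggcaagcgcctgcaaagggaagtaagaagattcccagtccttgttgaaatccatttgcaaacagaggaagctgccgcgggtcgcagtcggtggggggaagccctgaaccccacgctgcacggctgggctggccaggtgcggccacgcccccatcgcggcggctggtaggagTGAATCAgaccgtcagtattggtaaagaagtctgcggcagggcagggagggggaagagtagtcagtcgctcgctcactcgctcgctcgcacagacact
Irf4 held a TATA box whose first base is at -26 from the start, as 13.6% of 32851 promoters hold somewhere in the window. Prdm1 held TGAATCA at -48, a match to TGANTCA, which 7.81% of promoters hold, but not one of the AP-1 consensus forms. Batf3 held an E-box at -247 (7.15% of promoters) and a STAT site at -239 (8.30%). Batf and Nfil3 held none of the motifs searched, and neither AICE form, found in 0.125% and 0.119% of promoters, was in any of the 5. GC content was 75.7% in Batf3 and 81.7% in Nfil3, 61.0% in Irf4, 59.7% in Prdm1 and 49.7% in Batf, against a median of 52.7% over all promoters. A match is a run of letters and was not tested as a binding site.

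The response was read in each sex. In females, where 14% of all genes were called, and in males, where 24.9% were, the same 5 of 7 genes rose and their effector arrays lay above the naive ones. Such a separation of 3 arrays from 3 was found for 22.6% of all genes in females and 27.6% in males. The female and the male rise of Irf4 were 3.63 ± 0.33 and 3.76 ± 0.33 (SE, 3 against 3 arrays), those of Batf 2.04 ± 0.20 and 1.95 ± 0.20, and those of Nfil3 1.02 ± 0.20 and 0.86 ± 0.20. For Prdm1 they were 1.17 ± 0.26 and 0.91 ± 0.26. In males the call of Prdm1 ended after quantile normalization (0.71, limma adjusted p = 0.0683), without naive male array 1 (0.69, adjusted p = 0.0809), without effector male array 3 (0.82, adjusted p = 0.0722) and without the 3 arrays least correlated with their group (0.76, adjusted p = 0.131). Maf was called in males without naive male array 3 (0.64, adjusted p = 0.0153), after centring (0.57, adjusted p = 0.0436) and with the mean of its features (0.65, adjusted p = 0.0480).

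Batf3 had the widest gap between the sexes. Its signal rose by 1.72 ± 0.23 in females and 2.62 ± 0.23 in males, from naive means of 5.05 and 5.04 that both lay in the background range (up to 5.33 in naive females and 5.74 in naive males), so the sizes of these rises and their difference are those of array signal and are not settled for the transcript. The 3 effector male arrays, at 7.39 to 7.91, lay above the 3 effector female arrays, at 6.50 to 7.08, and the naive arrays of the sexes overlapped. Nfil3 also separated in effector cells, with females at 8.31 to 8.46 and males at 8.12 to 8.18. The share of all genes that separate the effector sexes was not counted. For Batf3 the sex difference in effector cells was -0.89 ± 0.23 (females minus males, 95% interval -1.37 to -0.40). Its difference of the responses was -0.90 ± 0.32 (95% interval -1.58 to -0.22). Neither passed over all genes (limma adjusted p = 1 and 0.867; unadjusted p = 0.00137 and 0.0133). The difference of responses called 0 of 7 genes here and 0% of all genes in limma, with 1 of the 7, Batf3, and 866 of all genes at an unadjusted p under 0.05. Females and males were called different for 0 of 7 genes in naive cells (0.209% of all genes called) and 0 of 7 in effector cells (0.0308%). At an unadjusted p under 0.05 these counts were 0 of 7 in naive cells, beside 1614 of all 16257 genes. In effector cells they were 1 of 7, beside 332 of all genes. The interval of the response difference spanned -0.51 to 0.70 for Batf and -1.14 to 0.87 for Irf4. Sex differences within these limits are thus not excluded with 3 arrays a group.

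**Figure D3:**
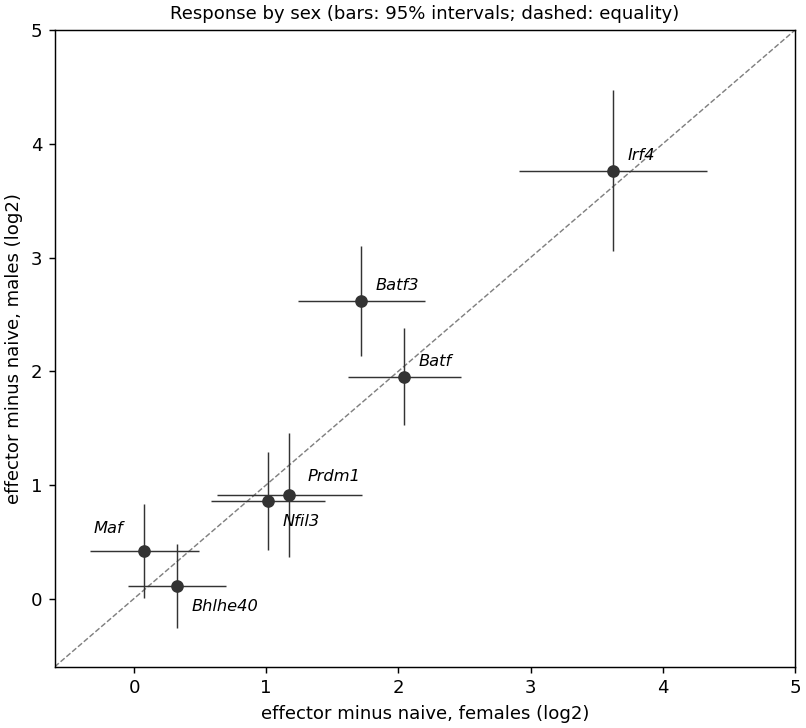
Effector minus naive log2 difference in females (horizontal axis) and in males (vertical axis) with 95% intervals; the dashed line marks equal responses. Batf3 lies farthest from the line, at 1.72 in females and 2.62 in males.

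Neonatal cells were then set against both adult states. Of the 7 genes, 3 were higher than in naive adults and none lower, where 10.2% of all genes were called and 6.04% were called higher. The naive arrays are the same as those used for the effector comparison, so the comparisons share them. The share of all genes that separate neonatal arrays from naive or from effector adult arrays was not counted, for any gene below. The median difference was 0.72 over the 7 genes and 0.02 over all genes. Irf4 was at 8.70, 7.32 and 8.67 on the neonatal arrays, all above the highest naive adult array (6.34) and below the lowest effector array (8.84). It was higher than in naive adults by 2.66 ± 0.29 (SE, n = 3 neonatal and 6 naive arrays; limma adjusted p = 3.85e-05), which ranked 17 among the upward differences of all genes. It was lower than in effector adults by -1.04 ± 0.29 (adjusted p = 0.020), which rested on neonatal array 2: without it the difference was -0.58 and did not pass (adjusted p = 0.135), nor did it pass against effector males alone (-0.85, adjusted p = 0.0980).

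Nfil3 was at 8.91, 8.19 and 8.26 in neonates, 1.13 ± 0.18 above naive adults (limma adjusted p = 0.000909). It differed from effector adults by 0.19 ± 0.18 (95% interval -0.18 to 0.56), which did not pass. Bhlhe40 was at 11.25, 11.05 and 10.91 in neonates, above every adult array. It was higher by 0.72 ± 0.15 than in naive adults (limma adjusted p = 0.00709) and by 0.50 ± 0.15 than in effector adults (adjusted p = 0.0281). The latter call ended after centring (0.40, adjusted p = 0.0754), with array weights (0.50, adjusted p = 0.0736), without neonatal array 1 (0.41, adjusted p = 0.111) or 2 (0.51, adjusted p = 0.0692), without effector female array 1 (0.49, adjusted p = 0.0519) or 2 (0.47, adjusted p = 0.0617) without effector male array 3 (0.47, adjusted p = 0.0627) and against effector females alone (0.45, adjusted p = 0.106). Prdm1 was at 6.98, 6.75 and 7.14 in neonates, above every naive adult array (highest 6.57) and overlapping the effector arrays (lowest 6.99). It differed from effector adults by -0.32 ± 0.22 and did not pass (limma adjusted p = 0.339). Its difference from naive adults was 0.73 ± 0.22 and just missed the threshold (limma adjusted p = 0.0511). It passed without naive male array 3 (0.80, adjusted p = 0.0377) or naive female array 2 (0.82, adjusted p = 0.0343), after centring (0.76, adjusted p = 0.0430), after quantile normalization (0.76, adjusted p = 0.0404), with a dim filter at percentile 60 (0.73, adjusted p = 0.0415) and with a trended prior (0.73, adjusted p = 0.0496).

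Batf and Batf3 were low in neonates. Batf was at 6.60, 6.13 and 6.99, spanning the naive adult arrays, with a difference of -0.07 ± 0.17 (95% interval -0.44 to 0.30). Batf3 was at 4.96, 4.63 and 4.93, with a difference of -0.20 ± 0.20 (95% interval -0.62 to 0.21), in the background range. Neither passed against naive adults (limma adjusted p = 0.85 and 0.562). Both were lower than in effector adults, Batf by -2.07 ± 0.17 (adjusted p = 3.31e-06) and Batf3 by -2.38 ± 0.20 (adjusted p = 3.15e-06), with no overlap. Maf was at 7.20, 7.45 and 7.54 and differed from naive adults by 0.03 ± 0.17. Between neonates and effector adults 1 of the 7 genes was higher and 3 were lower, where 20.6% of all genes were called, 5.93% higher and 14.7% lower.

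Markers of other cells that use these factors were read beside these values. Batf3 and Irf4 mark dendritic cells. Of 6 tested dendritic cell markers, 1 rose in effector cells (Ccr7, also a lymphocyte homing receptor, by 1.47 ± 0.22 from a naive level of 5.13 in the background range) and 1 fell (Xcr1, by -0.91 ± 0.18). Flt3, Zbtb46 and Xcr1, which define dendritic cells or a subset of them, lay in the background range in every state. Cd209a lay above it in every state, at 7.42 in naive, 7.56 in effector and 6.88 in neonatal cells, and Ccr7 and Siglech lay above it in effector and neonatal cells. The mean level of the list was 5.10 to 5.49 on naive adult, 5.22 to 5.43 on effector and 5.01 to 5.11 on neonatal arrays. Irf4 and Prdm1 are also plasma cell genes. The plasma cell marker Sdc1 and the B cell factor gene Pax5 lay in the background range in every state. Ighm, the IgM heavy chain gene, lay far above it, at 9.99 in naive, 7.80 in effector and 9.08 in neonatal cells. Of the 5 tested B and plasma cell markers Cd79b rose in effector cells, by 1.00 ± 0.24 from a naive level in the background range, and Ighm differed by -2.19 ± 0.21. Mzb1 did not pass and lay just above the range in effector cells, at 4.89. The list mean was 5.84 to 6.17 on naive and 5.42 to 5.72 on effector arrays. T cell markers had a list mean of 5.41 to 5.67 on naive, 5.06 to 5.35 on effector and 5.66 to 5.85 on neonatal arrays. Of the 7, 2 were lower in effector cells and 1, Cd3e, was higher in neonates (7.39 against 6.18 in naive adults). Cd3g lay far above the background range, at 10.22 in naive, 9.65 in effector and 10.37 in neonatal cells. Cd3e lay above it in every state, while Cd4, Cd8a and Cd8b1 lay in it in every state. Mast cell and basophil markers moved with the neonatal group: 3 of 4 were higher than in naive adults, led by Cpa3, which encodes mast cell carboxypeptidase, by 2.43 ± 0.20, and their mean was 6.09 to 6.89 against 5.19 to 5.39. The surfactant gene Sftpc was at 7.51 ± 0.59 (SD, n = 3) in neonates and 5.53 ± 0.99 (SD, n = 6) in naive adults, the 1 of 8 epithelial and endothelial markers that was higher. Of 8 macrophage and monocyte markers 1 rose and 2 fell in effector cells, and of 4 NK and ILC1 markers 1 fell. Beside these marker counts, 23.7% of all genes were called higher and 10.9% lower in effector cells. In neonates the shares of all genes were 6.04% higher and 4.12% lower than in naive adults. The part of such cells in the values of the 7 genes was not tested. In bulk RNA, fewer cells with a transcript and less transcript per cell cannot be told apart.

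Of 7 tested genes of the AP-1 family, 6 fell in effector cells and none rose (5 and none after centring). Over all genes 10.9% were called lower before centring. After it 6039 of all 16257 genes were called, 83.0% of them higher. The list median was -0.73, against 0.03 over all genes. The list holds the JUN genes Jun, Junb and Jund beside Batf2, Fos, Fosb and Fosl2. Batf2, counted among the 6, differed by -0.38 ± 0.12 within the background range, from 4.84 to 4.46. Jun, which pairs with BATF proteins, differed by -1.32 ± 0.25, Fosb by -1.18 ± 0.13, Fos by -1.09 ± 0.15 and Junb by -0.73 ± 0.16 (SE, n = 6 and 6; limma adjusted p = 0.000737, 6.41e-06, 4.3e-05 and 0.00303). Fos and Fosb did not overlap between the groups, and Jun and Junb did. These are immediate early genes, which cells induce rapidly upon many stimuli. In neonates 1 of the 7 AP-1 genes was higher than in naive adults, Fosl2 by 0.86 ± 0.17 (limma adjusted p = 0.00531). Another was lower, Jund by -0.60 ± 0.17 (adjusted p = 0.0357, lost in 11 of 27 alternative settings), while Fosb differed by -0.07 ± 0.16 and did not pass. Over all genes 6.04% were called higher and 4.12% lower in neonates. Of 9 tested genes of the IRF family and its ETS or Ikaros cofactors, 5 rose and 2 fell in effector cells, and none fell after centring. Over all genes 23.7% rose and 10.9% fell before centring. Irf7 rose by 1.38 ± 0.20, Irf8, the closest relative of Irf4, by 1.19 ± 0.19 from a naive level of 4.58 in the background range, Irf9 by 1.08 ± 0.16, and Ikzf3, which encodes Aiolos, by 0.72 ± 0.18. Spi1, which encodes PU.1, lay near the background range in each state and differed by -0.07 ± 0.16. In neonates Irf3 was lower, by -1.20 ± 0.17, and Ikzf3 higher, by 0.97 ± 0.22.

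Of 7 tested early or memory regulators known to oppose effector factors, 4 fell and 2 rose in effector cells, with a median of -0.57, where 10.9% of all genes fell and 23.7% rose. Bach2, the repressor that competes with AP-1 factors and restrains Prdm1 and effector genes, differed by -1.77 ± 0.24 (limma adjusted p = 4.44e-05), from 7.27 to 5.50. Klf2, which keeps lymphocytes quiescent, differed by -1.11 ± 0.22. Bcl6, which Blimp-1 represses and which represses Prdm1, rose by 0.99 ± 0.22 from a naive level of 5.38 in the background range, and Id3 differed by -0.71 ± 0.15 within the background range. Of the 7 genes, 1 was higher and 1 lower in neonates than in naive adults, where 6.04% and 4.12% of all genes were. Foxo1 differed by 0.57 ± 0.16 and Klf2 by -0.98 ± 0.27, calls lost in 17 and 8 of 27 alternative settings. Bach2 differed by -0.63 ± 0.29 in neonates and did not pass (limma adjusted p = 0.193). The list of known Blimp-1 targets shares Fos, Bcl6 and Id3 with the lists above. Of its 8 tested genes 4 fell, Il2 (-3.16 ± 0.27, to an effector level of 3.17 in the background range), Fos, Cd27 (-0.93 ± 0.17) and Id3, and 2 rose, Bcl6 and Myc (0.74 ± 0.19). Against naive adults, neonates had 2 of the 8 lower and none higher. Cd27 differed by -0.75 ± 0.21 and Ciita by -0.53 ± 0.14 within the background range, calls lost in 16 and 5 of 27 alternative settings. In the MAF and BACH family, of 8 tested genes Bach2 fell and the small MAF gene Mafk (0.69 ± 0.17) and Nfe2l2 (0.45 ± 0.17) rose, shares near those of all genes, and the call of Nfe2l2 was lost in 16 of 25 alternative settings.

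Genes of the circadian clock and the related PAR bZIP factors, some of whose products bind the same DNA sites as BHLHE40 or NFIL3, fell for 7 of 13 tested members and rose for 1, where 10.9% of all genes fell and 23.7% rose. Their median was -0.44. After centring 4 fell and 2 rose, where 6039 of all 16257 genes were called, 83.0% of them higher. Nr1d1, which encodes the repressor REV-ERB alpha, differed by -1.87 ± 0.20 (limma adjusted p = 5.52e-06), Dbp, a bZIP activator that competes with NFIL3 for its sites, by -1.07 ± 0.16 and Nr1d2 by -1.0 ± 0.24, while Cry1 rose by 1.23 ± 0.26. In neonates Dbp was lower than in naive adults, by -1.05 ± 0.20 (adjusted p = 0.0039) to a level of 4.74 in the background range, and Nr1d1 differed by -0.33 ± 0.25 and did not pass. The hour at which cells were taken is not given, and a difference in it between groups was not tested.

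Genes known to depend on IRF4, BATF, c-MAF or BHLHE40 in lymphocytes rose for 10 of 15 tested members in effector cells and fell for none, with a median of 0.68, where 23.7% of all genes rose. Ctla4, which encodes an inhibitory receptor, rose by 4.11 ± 0.19, Tigit, another, by 3.48 ± 0.24, the cytokine gene Il13 by 3.07 ± 0.14 and Havcr2, which encodes TIM-3, by 1.88 ± 0.19. In naive adults Ctla4 (4.38), Tigit (3.36) and Havcr2 (3.33) lay in the background range. In neonates 6 of 15 were higher and none lower: Il13 by 2.36 ± 0.17, Il5 by 1.95 ± 0.26, Ctla4 by 1.80 ± 0.23, Havcr2 by 1.57 ± 0.23, Csf2, the GM-CSF gene, by 1.12 ± 0.15 and Il4 by 1.04 ± 0.16. Pdcd1, which encodes PD-1, rose by 1.60 ± 0.19 in effector cells and differed by -0.02 ± 0.23 in neonates. A list of IL-33 receptor and signalling genes, with STATs among them, had 11 tested genes, of which 7 rose in effector cells. Among the 7 were Stat5b (1.25 ± 0.21), the adaptor Myd88 (0.91 ± 0.15), Stat5a (0.84 ± 0.18) and Traf6 (0.80 ± 0.24). After quantile normalization 5 rose and 1 fell, and Traf6 was among those no longer called. The IL-33 receptor gene Il1rl1 was not tested. Il1rap, which encodes its co-receptor, differed by -0.03 ± 0.17 in effector cells and did not pass (limma adjusted p = 0.902). With STATs in the list, its count is not one of IL-33 signalling alone. In neonates 2 of the 11 were higher, Rel, the NF-kB subunit known to induce Irf4 in lymphocytes, by 1.67 ± 0.25, and Stat3 by 0.81 ± 0.15. Over all genes 6.04% were called higher and 4.12% lower in neonates than in naive adults.

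**Figure D4:**
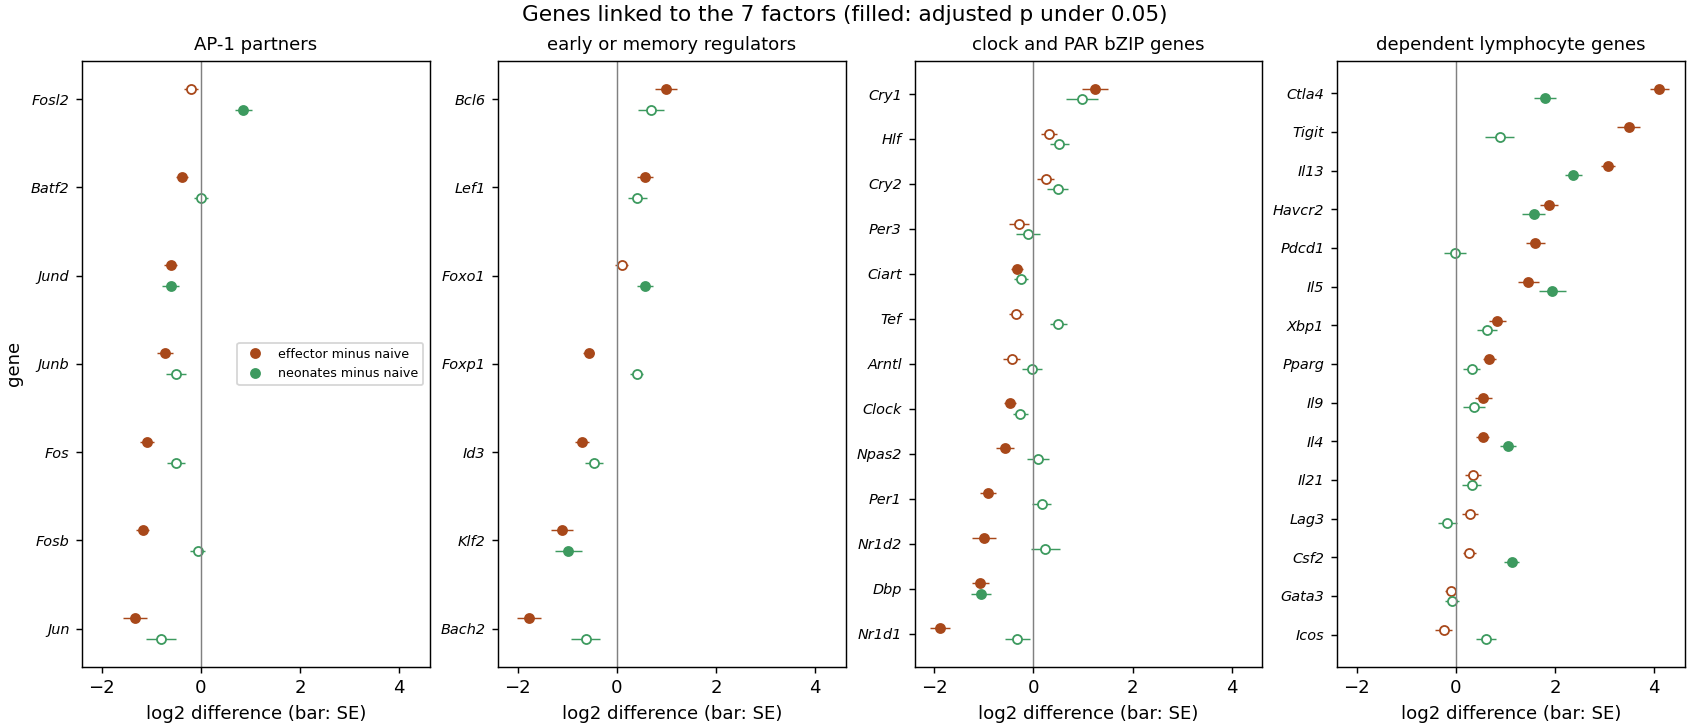
Log2 difference from naive adults (horizontal axis, bars SE) for the tested genes of 4 lists, in effector adults (brown) and neonates (green); filled points have an adjusted p under 0.05 in limma. The 7 genes under AP-1 partners, which are JUN and FOS genes and Batf2, lie below 0 in effector cells. Of the 15 dependent genes 10 are higher there.

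The genes most alike in pattern were found over the 15 arrays among 14400 named genes, by the root mean square difference between profiles centred on their means. For Irf4 they were Nusap1, a mitotic spindle gene (0.41 log2 units), H2ax, a histone variant gene (0.43), and Il13 (0.44), where Irf4 itself varied by 1.74 around its mean. The 3 were picked by their values on these same arrays, so their high levels in effector and neonatal cells follow from the pick. Nusap1 lay 3.41 and 2.56 above naive adults in these states. The same limit holds for the neighbours of the other genes. For Batf they were the zinc transporter gene Slc39a4 (0.29), the tyrosyl-tRNA synthetase gene Yars (0.31) and the mismatch repair gene Msh6 (0.32), against its own 1.01, and in neonates Slc39a4 differed by 0.13 and Yars by 0.07 from naive adults. For Batf3, which varied by 1.16, they were Dmc1 (0.40), the MHC class II gene H2-Eb1 (0.40) and the cell cycle regulator Mybl2 (0.40). For Nfil3 they were Akap12 (0.19), Eprs (0.23) and Azin1 (0.23), and for Prdm1 the cytoskeletal genes Iqgap1 (0.27) and Vcl (0.27) and Zdhhc5 (0.27). Bhlhe40, with a spread of 0.31, was closest to Fnbp1 (0.12), Mex3c (0.14) and Slc38a2 (0.15). Maf varied by 0.23 only, and its neighbours Slc20a1, Dync1i2 and Kmt2a (0.12 to 0.13) differed by 0.18 to 0.23 between effector and naive adults.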

How the data were processed

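The deposited values are log2 expression levels that the authors made with Affymetrix Expression Console and RMA, per the submitters' processing notes. The versions are not stated. RMA subtracts background, equalizes the quantiles of the arrays over their probes and combines the probes of a feature. Array medians over features still ran from 4.44 to 4.50 on effector, 4.56 to 4.64 on naive adult and 4.50 to 4.63 on neonatal arrays. Of 41345 features 25335 had an annotation and 23521 had exactly 1 symbol, which alone were used; 23328 of these matched a RefSeq gene table by gene identifier, and 0 symbols changed. Features had to exceed percentile 40 of the array on 3 or more arrays, and the brightest feature of a gene was used, leaving 16257 genes.

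Group means were estimated from the 15 arrays together in limma 3.58.1 (R 4.3.3) and moderated by empirical Bayes, with 10 residual and 5.05 prior degrees of freedom. The 8 comparisons weight the sexes equally. Two-sided p-values had a Benjamini-Hochberg adjustment over 16257 genes, with calls at an adjusted p under 0.05. Errors of differences are moderated standard errors of that fit. The number of arrays limits the precision. No 2 arrays held identical values, and the closest pair correlated at 0.977. The fit was tested on simulated data.

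The 7 genes and all lists were chosen with earlier results of these data known. Named list genes are up to 4 called genes with the largest difference per list for effector against naive adults and up to 3 for neonates against naive adults, or 2 where none was called; not all are printed, and further genes of these lists, the marker genes and the clauses that contrast a gene between states were added after their values were seen. Alternatives were the filter, scaling, prior, weights, block, arrays fitted, feature rule and each array left out. After the data were seen, a fit without the 3 arrays least correlated with their group and fits against adults of a single sex were added. Figures were drawn with matplotlib 3.10.9.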

Additional observations from a re-analysis of the deposited data

How the results depend on the processing

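Over the alternatives, 1428 values of the 7 genes were recomputed. Of these 1369 kept their direction and their side of the threshold, 16 lost a call, 14 gained a call, 29 uncalled values turned in sign, and 0 called values turned in sign. The 5 rises in effector adults kept their calls in each alternative over both sexes and in females. Between neonates and effector adults the number of called genes was 4, and 2 without the 3 arrays least correlated with their group (neonatal array 2 and naive male arrays 1 and 3); leaving out single arrays gave 2 to 4, the lowest without neonatal array 2. The genes lost were Irf4 and Bhlhe40. Among all genes, leaving out neonatal array 2 lowered that comparison's calls from 3346 to 2061, array weights to 2068 and setting neonates against effector females alone to 1942. Against naive adults neonatal calls were 1652, and 1031 without neonatal array 1, 705 with array weights, 676 with only the arrays compared and 935 against adult females alone. In females the effector calls were 2276, and 1358 without effector female array 2, 1435 without effector female array 3 and 3745 with array weights. In males they were 4048, and 2607 without effector male array 3. Naive sex differences were called for 34 genes, between 16 and 99 without single arrays, 381 without the 3 arrays, 24 with the replicate block, 19 with array weights and 8 with only the arrays compared. Effector sex differences were called for 5 genes, 11 with array weights and 8 with only the arrays compared. The difference of responses went from 0 calls to at most 8 without single arrays and to 72 without the 3 arrays, with none of the 7 genes among them. The cause of these changes was not tested.

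After centring, higher calls made up 83.0% in place of 68.5% for effector against naive adults, 83.9% in place of 73.1% in females, 86.8% in place of 74.9% in males, and 16.4% in place of 28.8% for neonates against effector adults. Without the dim filter the last share was 40.8%.

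With the replicate number as a block, 5 of the 7 genes were called for effector against naive adults, 4 for neonates against naive adults, where Prdm1 was added (0.73, limma adjusted p = 0.0405), and 4 for neonates against effector adults. Whether the numbers pair the samples is unknown from the labels. Same-numbered arrays of different groups correlated at -0.11 to 0.0991 in their deviations from group means. Differently numbered arrays were not set beside them, so these values cannot decide it. Of 1158 recomputed values of named list genes 97 lost a call, most of them in neonates against naive adults, and 0 turned in sign while called.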
